A study of Mus musculus with 43 samples.

Results

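Expression of 10 genes of the epithelial to mesenchymal transition (EMT) and of cell adhesion was followed through every library of a mouse colon study of the kinase inhibitor regorafenib. They were chosen by name, with earlier results of these data known, out of 52636 genes listed in each of 2 expression tables: the cadherins Cdh1 and Cdh2, the epithelial adhesion molecule Epcam, the intermediate filament Vim, the galectin Lgals1, and the transcription factors Zeb1, Zeb2, Snai1, Snai2 and Twist1. All 10 had a row in both tables. There were 24 organoid libraries in one table and 19 fibroblast libraries in the other. Values are counted reads per gene scaled to 20000000 reads per library (CP20M), so that each level is relative to all counted RNA of its library.

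Colonoids were epithelial organoids from Vil-Cre/ERT2 mice with intact Apc, and tumoroids were organoids from Vil-Cre/ERT2 mice with both Apc alleles floxed and recombined, which the labels call Apc deficient. Both genotypes came from adult mice that carried the Cre transgene and had received tamoxifen. The villin promoter restricts this Cre to intestinal epithelium. Each genotype was represented by 3 lines, each grown from an individual mouse (M41, M40 and M1 for colonoids, F11, M3 and M14 for tumoroids). Each line was cultured for 6 days with DMSO vehicle (Ve), 4 µM regorafenib (R4), 8 µM regorafenib (R8) or 1 µM 5-fluorouracil (5-FU), a cytotoxic drug of another class. Fibroblasts were primary cultures from colons of wild-type C57B/6 mice, in 4 lines labelled M3, M3 (2), M1 (2) and M11. They were treated for 7 days with DMSO vehicle, 4 µM or 10 µM regorafenib (R4, R10), 1 µM of the autophagy inhibitor autogramin-2, or 4 µM regorafenib with 1 µM autogramin-2. Line M11 has no 10 µM library among the samples analysed here. The comparisons ask how each drug changed expression relative to vehicle.

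In EMT, epithelial cells loosen the adherens junctions built on E-cadherin and take up a motile, mesenchymal state with a vimentin cytoskeleton. The Snail, Zeb and Twist transcription factors are its best known drivers, and several of them bind E-box sequences in promoters of epithelial genes such as Cdh1 and lower their transcription. In the healthy colon these factors and vimentin belong mainly to stromal cells, while E-cadherin and Epcam mark the epithelium.

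Windows upstream of RefSeq transcript starts could be read for 5 members, and none was available for Cdh1. Among these 5 members, Epcam held the most E-boxes of the kind that Snail and Zeb factors recognise. The 250 bases before its start are shown because they set out where such a factor could meet an epithelial gene of this list. They lie at chr17:87635729-87635978 of GRCm38.p6 (RefSeq), on the plus strand. Capitals mark the E-box CACCTG and its reverse complement CAGGTG.

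Epcam: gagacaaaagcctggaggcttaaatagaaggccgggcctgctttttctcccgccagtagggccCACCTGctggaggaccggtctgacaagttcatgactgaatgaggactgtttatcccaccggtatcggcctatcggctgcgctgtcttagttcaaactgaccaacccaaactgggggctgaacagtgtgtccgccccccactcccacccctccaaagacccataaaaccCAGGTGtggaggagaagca

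The Epcam window held 2 such E-boxes, beginning at -187 and -19 from the start. Of 32851 RefSeq windows of 250 bases, 17.22% held at least 1 and 2.06% held 2 or more, counting both strands, where the 2 spellings are 1 site. The Snai1 window held 1, at -126, and the windows of Vim, Twist1 and Zeb2 held 0. The window of Vim and 3 of the 4 windows of Zeb2 lie inside the gene bounds given for these genes below, since RefSeq starts there differ from the annotated gene start. A match describes letters in this window and is no binding site.

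Library depth ran from 7949937 to 12825907 counted reads in fibroblasts and from 4371789 to 22370021 in 23 organoid libraries. The library of colonoid line M41 at 4 µM regorafenib stood apart with 512592 reads, where 1 read is worth 39.0 CP20M and 3 reads 117.0 CP20M. Results that rest on it are therefore also given without it. The labelled cell types were checked with fixed marker lists. The 11 epithelial markers (keratins, claudins, Cdx factors and others) summed to between 105555 and 420022 CP20M in organoids and between 221 and 1700 CP20M in fibroblasts. The 8 fibroblast markers (collagens, Pdgfra and others) summed to between 12 and 123 CP20M in organoids and between 110998 and 186156 CP20M in fibroblasts. In these bulk libraries, fewer cells of a type and less RNA per cell cannot be told apart. The tables were sequenced and scaled separately, so levels in organoids and fibroblasts are set side by side with no test.

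Regorafenib raised Vim and Lgals1 in both organoid genotypes, while no difference in Cdh1 or Epcam passed the test. A low-value filter of 200 CP20M in at least 2 libraries was passed by 4 of the 10 members in organoids (Vim, Lgals1, Cdh1, Epcam). The other 6 were near the detection limit and are described after them. Of the 4, 2 were called higher and 0 lower when the 4 regorafenib groups were set against the 2 vehicle groups with limma (Benjamini-Hochberg adjusted p under 0.001 and a fold of at least 1.5). Vim and Lgals1 passed the filter only through drug-treated libraries, so they had to differ, and their count is not read against the share of all genes. Of all 11320 genes tested, 4.97% were called, 2.82% higher and 2.16% lower. The median log2 change over all genes was -0.10. Fold changes are on the scale log2(CP20M + 20), which understates changes of low genes.

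Vim encodes vimentin, the main intermediate filament of mesenchymal cells (chromosome 2, 13573927 to 13582826, plus strand, GRCm38). In colonoid lines M41, M40 and M1, Vim read 55, 80 and 3 CP20M in vehicle, 547, 2505 and 500 CP20M at 4 µM regorafenib, and 880, 2416 and 614 CP20M at 8 µM. In tumoroid lines F11, M3 and M14, Vim read 6, 0 and 3 CP20M in vehicle, 326, 260 and 221 CP20M at 4 µM, and 491, 364 and 474 CP20M at 8 µM. Every regorafenib library lay above every vehicle library, and line M40 was the highest colonoid line under each treatment. The tumoroid vehicle values stand for only 4, 0 and 2 reads, so the size of the tumoroid fold depends on the value added before the log. Over both genotypes Vim rose by 4.08 ± 0.38 on the log2 scale (SE, 16.9-fold, limma adjusted p = 7.1e-06), and it was higher in 6 of 6 lines.

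Lgals1 encodes galectin-1, a secreted lectin that binds cell surface and matrix glycans and is abundant in stroma (chromosome 15, 78926725 to 78930465, plus strand). In the colonoid lines, in the same order, Lgals1 read 55, 59 and 43 CP20M in vehicle, 235, 827 and 937 CP20M at 4 µM, and 488, 873 and 819 CP20M at 8 µM. In the tumoroid lines Lgals1 read 18, 81 and 31 CP20M in vehicle, 502, 677 and 578 CP20M at 4 µM, and 665, 879 and 735 CP20M at 8 µM. Again no regorafenib library overlapped a vehicle library. The 2 lowest treated values were those of line M41. The rise over both genotypes was 3.37 ± 0.27 (SE, 10.3-fold, limma adjusted p = 2.4e-06). Without the shallow library the differences were 3.52 for Lgals1 and 4.17 for Vim, both called.

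**Figure D1:**
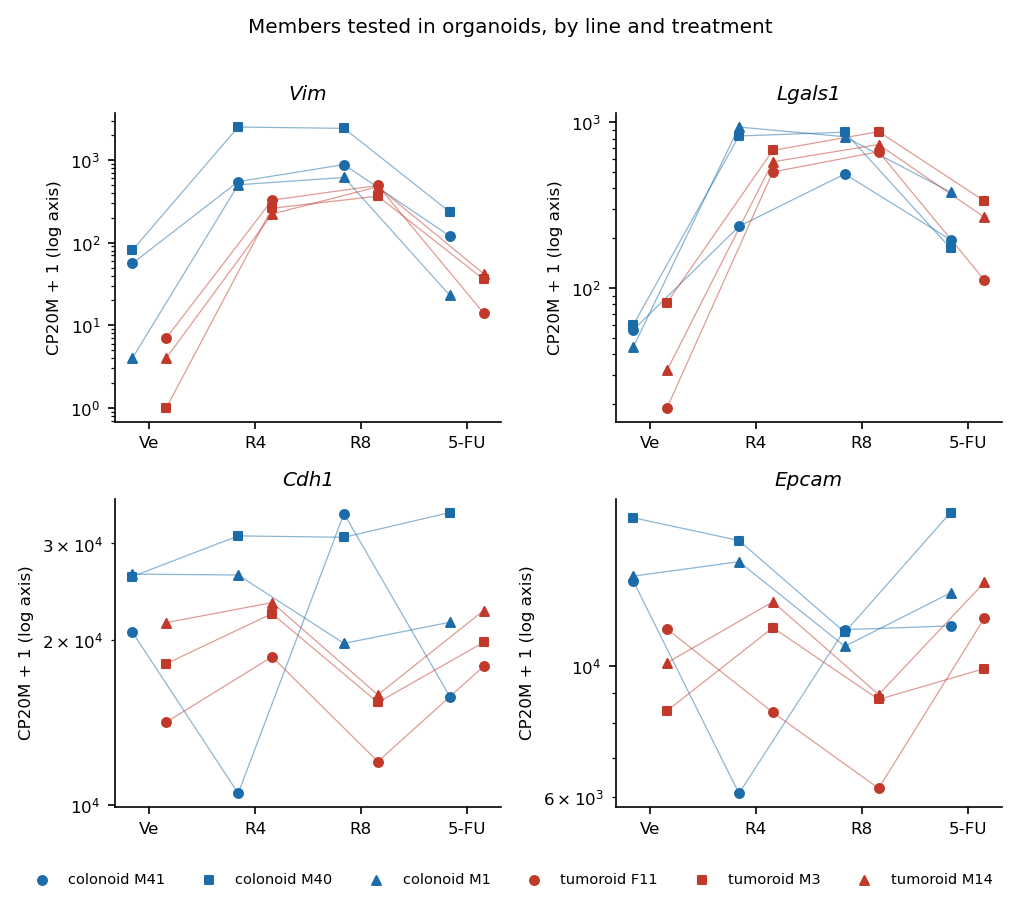
Vim, Lgals1, Cdh1 and Epcam in the 24 organoid libraries, by treatment on the x axis, with CP20M + 1 on a log axis and 1 point per line in colonoids and tumoroids. Vim lies at 0 to 80 CP20M in vehicle and at 221 to 2505 CP20M with regorafenib, while Cdh1 stays between 10496 and 34167 CP20M throughout.

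Within colonoids Vim rose by 4.18 ± 0.53 (SE, 18.1-fold, limma adjusted p = 2.7e-04) and Lgals1 by 3.18 ± 0.38 (SE, 9.09-fold, adjusted p = 1.8e-04). Over all genes 1.46% were called in colonoids and 0.769% called higher, against which the count of members is again not read. Within tumoroids Vim rose by 3.99 ± 0.53 (SE, 15.8-fold, limma adjusted p = 8.5e-04) and Lgals1 by 3.56 ± 0.38 (SE, 11.8-fold, adjusted p = 1.9e-04), where 0.203% of all genes were called and 0.150% called higher. The single-genotype calls stood close to the threshold of 0.001. Leaving out any 1 of the 6 organoid lines put the colonoid Vim call at an adjusted p between 0.00125 and 0.00233, past the threshold, at differences of 3.94 to 4.64. The tumoroid Vim call was kept in 2 of 6 such fits, with adjusted p up to 0.0244 and differences of 3.96 to 4.03. The Lgals1 call was kept in 3 of 6 for colonoids (adjusted p up to 0.00548) and in 2 of 6 for tumoroids (adjusted p up to 0.0109), at differences of 2.86 to 3.65 and 3.35 to 3.85. In the tumoroid contrast 0 genes of the whole table were called without any 1 of the tumoroid lines, and in the colonoid contrast 1 without line M40. The change in tumoroids did not differ detectably from that in colonoids, with a difference of -0.19 ± 0.75 for Vim (95% interval -1.79 to 1.41) and 0.37 ± 0.53 (SE) for Lgals1, both at a limma adjusted p of 1. Only 1 gene of the table, 0.00883%, was called for that interaction. The Vim interval leaves room for a sizeable difference either way, and its sign depended on the value added before the log.

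No difference between the doses passed the test. Between 8 µM and 4 µM over both genotypes the difference was 0.49 ± 0.43 (SE) for Vim (95% interval -0.43 to 1.42, limma adjusted p = 0.583) and 0.33 ± 0.31 for Lgals1 (95% interval -0.32 to 0.98, adjusted p = 0.608). No member was called by limma or edgeR, 0 had an unadjusted p under 0.05, and 0.451% of genes were called. In tumoroids Vim was higher at 8 µM than at 4 µM in 3 of 3 lines and the groups did not overlap. In colonoids it was higher in 2 of 3 lines and the groups overlapped.

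In vehicle no member tested was called between the genotypes. Tumoroids minus colonoids gave -1.28 ± 0.62 (SE) for Vim (limma adjusted p = 0.338), -0.31 ± 0.43 for Lgals1 (adjusted p = 0.815), -0.46 ± 0.33 for Cdh1 (adjusted p = 0.572) and -0.61 ± 0.30 for Epcam (adjusted p = 0.349). At the thresholds of that contrast (adjusted p under 0.01 and 2-fold) 0.141% of genes were called, and of these members 0 had an unadjusted p under 0.05 and 0 were called by edgeR. The Vim difference rests on colonoid lines M41 and M40, since line M1, at 3 CP20M, was as low as the tumoroids.

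5-FU was the drug control. The titles of the 3 tumoroid 5-FU libraries call them colonoids, while their genotype and line are those of tumoroids, by which they were grouped. Lgals1 read 195, 173 and 379 CP20M with 5-FU in colonoids and 111, 335 and 267 CP20M in tumoroids, above all 6 vehicle values. It rose by 1.93 ± 0.32 (SE, 3.8-fold, limma adjusted p = 0.00387), the only member called among the 4 tested, where 2.35% of 11562 genes were called and 1.53% called higher. The call was lost without colonoid line M1 (adjusted p = 0.0685) and without tumoroid line M14 (adjusted p = 0.0643). Vim read 119, 234 and 22 CP20M with 5-FU in colonoids and 13, 35 and 41 CP20M in tumoroids. Each line was higher than its own vehicle, yet across lines the colonoid groups overlapped. The Vim difference was 1.05 ± 0.47 (SE, 2.07-fold, limma adjusted p = 0.274), not called, and with line as a block it was 1.05 ± 0.23 (adjusted p = 0.0111), called, where 3.81% of genes were called higher. Both Lgals1 and Vim passed the filter only through drug-treated libraries, so their calls are not read against the shares of all genes. Vehicle libraries are shared by the 5-FU and regorafenib comparisons, and the 2 drugs were not tested against each other.

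The epithelial members Cdh1 and Epcam were not called. Cdh1 encodes E-cadherin, the adherens junction protein of epithelia (chromosome 8, 106603351 to 106670246, plus strand). In colonoids it read 20670, 26111 and 26381 CP20M in vehicle, 10496, 30975 and 26278 CP20M at 4 µM, and 34012, 30791 and 19713 CP20M at 8 µM. In tumoroids it read 14160, 18101 and 21509 CP20M in vehicle, 18633, 22343 and 23403 CP20M at 4 µM, and 11998, 15378 and 15884 CP20M at 8 µM. The lowest value of all is that of the shallow M41 library, and each regorafenib group overlapped its vehicle in both genotypes. In tumoroids Cdh1 was above vehicle in 3 of 3 lines at 4 µM and below it in 3 of 3 at 8 µM. All 3 tumoroid values at 8 µM lay below all 3 at 4 µM (-0.58 ± 0.33, SE, limma, not called). The mean over doses does not show this. The regorafenib difference was -0.02 ± 0.20 (SE, 95% interval -0.45 to 0.40, limma adjusted p = 0.945), and it was 0.10 without the shallow library.

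Epcam encodes a homophilic adhesion molecule of epithelial cells (chromosome 17, 87635979 to 87651129, plus strand), whose upstream window is printed above. In colonoids it read 13945, 17835 and 14201 CP20M in vehicle, 6087, 16319 and 15025 CP20M at 4 µM, and 11526, 11406 and 10802 CP20M at 8 µM. In tumoroids it read 11550, 8402 and 10129 CP20M in vehicle, 8349, 11616 and 12848 CP20M at 4 µM, and 6207, 8781 and 8948 CP20M at 8 µM. All 3 colonoid values at 8 µM lay below all 3 in vehicle, whereas the tumoroid groups overlapped. The difference over both genotypes was -0.27 ± 0.18 (SE, 95% interval -0.66 to 0.12, limma adjusted p = 0.3), not called. With 5-FU, Cdh1 ranged from 15768 to 34167 CP20M and Epcam from 9902 to 18200 CP20M, with differences of 0.04 and 0.07.

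The other 6 members were near the detection limit in organoids and were compared by an exact permutation test within lines (two-sided, 729 relabellings over 6 lines, smallest possible p of 0.00137, unadjusted, 6 genes tested). Zeb1 and Cdh2 were higher with regorafenib in every line. Zeb1, a zinc finger repressor of epithelial genes, read 7, 14 and 6 CP20M in vehicle colonoids, 40, 65 and 90 CP20M at 4 µM, and 12, 50 and 33 CP20M at 8 µM. In tumoroids Zeb1 read 3, 1 and 2 CP20M in vehicle, 12, 42 and 36 CP20M at 4 µM, and 24, 18 and 19 CP20M at 8 µM. The highest vehicle value, 14 CP20M, overlapped the lowest treated value, 12 CP20M, and within 4 µM no group overlapped its vehicle. The mean difference was 1.07 ± 0.33 (SD, n = 6 lines), exact permutation p = 0.00137, the smallest the design allows, and 1.00 without the shallow library (exact p = 0.00206). The 40 CP20M of line M41 is a single read. With 5-FU, Zeb1 read 2, 48 and 19 CP20M in colonoids and 6, 2 and 12 CP20M in tumoroids, above its own vehicle in 5 of 6 lines. Zeb1 shares 198 exon bases with Gm10125 on the other strand, and whether counting used strand is not stated in the sources used here.

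Cdh2 encodes N-cadherin, the cadherin of mesenchymal and neural cells. It read 34, 50 and 9 CP20M in vehicle colonoids, 79, 96 and 29 CP20M at 4 µM, and 40, 54 and 14 CP20M at 8 µM. In tumoroids Cdh2 read 3, 1 and 5 CP20M in vehicle, 20, 8 and 38 CP20M at 4 µM, and 6, 5 and 13 CP20M at 8 µM. Each line was higher at both doses than in its vehicle, though the 79 CP20M of line M41 is 2 reads. With 5-FU it read 27, 114 and 41 CP20M in colonoids and 7, 18 and 34 CP20M in tumoroids, above its own vehicle in 5 of 6 lines, and the mean was above that at 8 µM regorafenib in both genotypes (60.7 against 36 CP20M and 19.7 against 8 CP20M). A higher Cdh2 level was thus seen with both drugs, and neither 5-FU against vehicle nor the difference between the drugs was tested for it. The mean difference was 0.51 ± 0.16 (SD, n = 6 lines, exact permutation p = 0.0137), and 0.45 without the shallow library (exact p = 0.0144).

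Snai2, Snai1, Zeb2 and Twist1 are also drivers of the transition and read at most 40 CP20M. Snai2 (Slug) ranged from 0 to 8 CP20M in vehicle and from 0 to 27 CP20M with regorafenib, a mean difference of 0.37 ± 0.38 (SD, n = 6 lines, exact permutation p = 0.0425). It was higher in 5 of 6 lines, and the exact p was above 0.05 when any of 4 single lines was left out (highest exact permutation p = 0.165). Without the shallow library the Snai2 difference was 0.42 (exact permutation p = 0.0103). Twist1, a basic helix-loop-helix factor, read 3, 5 and 7 CP20M in vehicle tumoroids, 33, 6 and 20 CP20M at 4 µM, and 40, 18 and 28 CP20M at 8 µM. In colonoids Twist1 was 13, 0 and 0 CP20M in vehicle and 0, 0 and 0 CP20M at 8 µM. At 4 µM it was 40, 2 and 2 CP20M in lines M41, M40 and M1, each of them 1 read. Over all lines the Twist1 difference was 0.42 ± 0.49 (SD, n = 6 lines, exact permutation p = 0.0974). It was above 0 in 6 of 6 lines, though in every colonoid line this rests on that 1 read. Its exact p was 0.0165 without line M41 and 0.214 without the shallow library alone. Zeb2 ranged from 0 to 10 CP20M in vehicle and from 0 to 17 CP20M with regorafenib (mean difference 0.30 ± 0.41, SD, n = 6 lines, exact permutation p = 0.059), and its exact p was 0.0123 without line M41 and 0.0309 without the shallow library. Snai1 was at 0 in 8 of 12 regorafenib libraries and from 0 to 7 CP20M in vehicle (mean difference 0.07 ± 0.21, SD, n = 6 lines, exact permutation p = 0.84). For Snai1 no difference was detectable at this depth, and for Twist1 and Zeb2 the outcome depended on line M41. With 5-FU these 4 factors ranged from 0 to 17 CP20M.

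**Figure D2:**
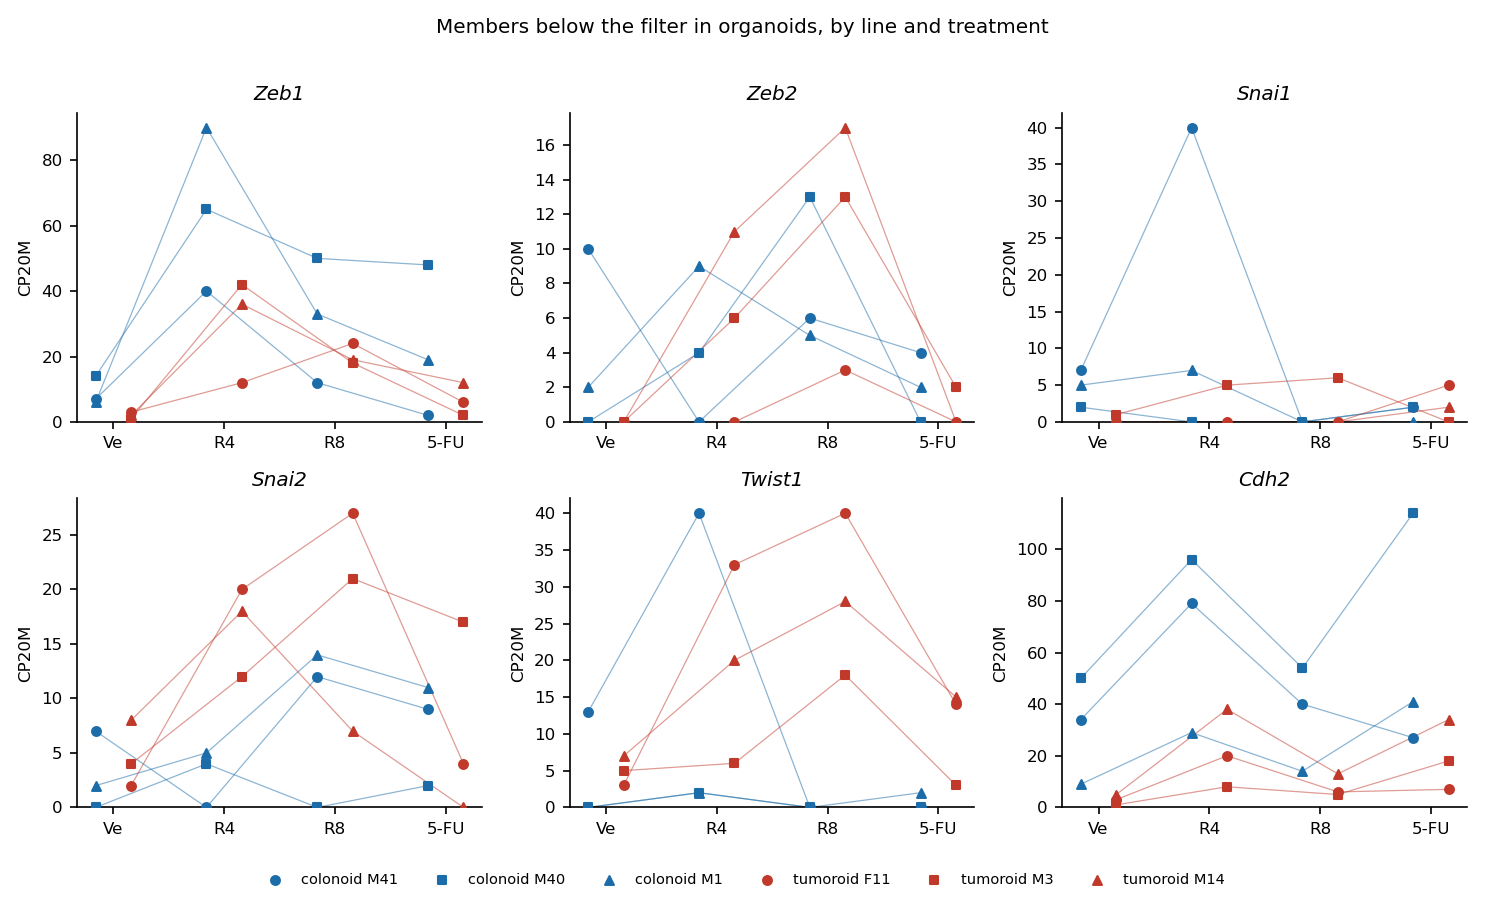
Zeb1, Zeb2, Snai1, Snai2, Twist1 and Cdh2 in the 24 organoid libraries, in CP20M on linear axes by treatment, with 1 point per line. Zeb1 is at 1 to 14 CP20M in vehicle and 12 to 90 CP20M with regorafenib, and Snai1 is at 0 in 8 of 12 regorafenib libraries.

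With regorafenib, Vim, Lgals1 and Zeb1 in organoids remained below their levels in fibroblasts. Vim at 8 µM averaged 1303 ± 973 CP20M in colonoids and 443 ± 68.9 CP20M in tumoroids (SD, n = 3), which is 2.11% and 0.717% of its mean in vehicle fibroblasts. Lgals1 at 8 µM was at 7.47% of its own fibroblast mean in colonoids and at 7.81% in tumoroids. Zeb1 in colonoids at 4 µM was at 4.49%.

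Markers of other cell types that an organoid culture could hold were followed beside the Vim and Lgals1 result. The 8 fibroblast markers summed to between 12 and 123 CP20M in vehicle and between 13 and 118 CP20M with regorafenib. In tumoroid lines F11, M3 and M14 the sum was 19, 12 and 34 CP20M in vehicle, 23, 31 and 68 CP20M at 4 µM, 20, 67 and 82 CP20M at 8 µM and 23, 48 and 43 CP20M with 5-FU, so that it was higher than vehicle under each drug in all 3 lines. In colonoid lines M41 and M40 it was lower than vehicle at both doses, and in M1 higher. Col1a1, the highest of the list, ranged from 0 to 19 CP20M in vehicle and from 2 to 118 CP20M with regorafenib (118 CP20M is 3 reads of the shallow library). Lum was at 0 in all 24 libraries and Col1a2 between 0 and 4 CP20M. The part of these markers in the Vim and Lgals1 values was not tested. The 5 endothelial markers summed to 4 to 37 CP20M in vehicle and 0 to 79 CP20M with regorafenib, the 4 smooth muscle markers to 3 to 22 CP20M and 2 to 120 CP20M, and the 5 enteric glia and neuron markers to 10 to 52 CP20M and 6 to 40 CP20M. The 7 macrophage markers summed higher with regorafenib, 571 to 3247 CP20M against 433 to 588 CP20M. That sum is carried by Csf1r and by Cd68, a lysosomal protein, which ranged from 48 to 171 CP20M in vehicle and from 40 to 2659 CP20M with regorafenib (1.60 ± 0.42, SE, limma adjusted p = 0.0112, not called). The sum was above vehicle at both doses in 6 of 6 lines, and Cd68 was called higher at 8 µM than at 4 µM (2.47 ± 0.49, SE, limma adjusted p = 0.0391). Of the other markers of this list, Ptprc read 0 to 7 CP20M, C1qa 0 to 2 CP20M and Lyz2 0 to 4 CP20M in all organoid libraries. Adgre1 was at 0 throughout both genotypes at 8 µM and with 5-FU, and was detected at 4 µM in both. Aif1 was detected in every organoid group. What the rise of this sum stands for was not tested.

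**Figure D3:**
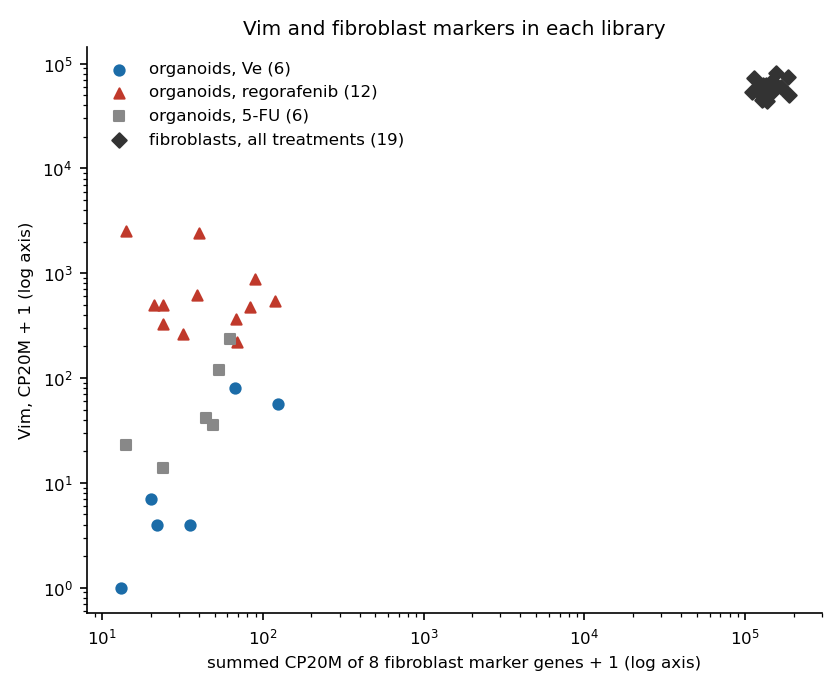
Vim (y axis, CP20M + 1) against the summed level of 8 fibroblast marker genes (x axis, CP20M + 1) in each library, both on log axes, by cell type and treatment. Organoid libraries span 12 to 123 CP20M on the x axis (tumoroids 12 to 34 CP20M in vehicle and 20 to 82 CP20M with regorafenib) while Vim moves from 0 to 80 CP20M in vehicle to 221 to 2505 CP20M with regorafenib, and fibroblast libraries lie apart at 110998 to 186156 CP20M.

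Genes that work with the members were described from fixed lists. Of the mesenchymal EMT markers, 6 of 14 passed the filter in organoids, and 3 of these 6 were called higher with regorafenib, 0 lower (median log2 change 1.53, against -0.10 for all genes). Of all genes 2.82% were called higher. Fn1 (fibronectin) ranged from 935 to 13095 CP20M in vehicle and from 22870 to 224457 CP20M with regorafenib, a rise of 4.54 ± 0.43 (SE, 23.2-fold, limma adjusted p = 8.6e-06). Itga5, a subunit of the fibronectin receptor, rose by 2.22 ± 0.27 (SE, adjusted p = 5.2e-05). The other one called was Tnc (3.16), named after its value was seen. A gene that passed the filter only through treated libraries had to differ, so the count describes only those 6 and is not read against that share.

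Of 10 transcription factors and splicing regulators that hold cells in the epithelial state, all passed the filter, 5 were called lower and 0 higher (median -0.77), where 2.16% of all genes were called lower. Within colonoids 3 were called lower, where 78 of all 11320 genes were. Within tumoroids 0 were called lower, where only 6 of all 11320 genes were, and 5 of the list had an unadjusted p under 0.05. Ovol1, a repressor of Zeb1, fell from a median of 270 CP20M in vehicle to 63 CP20M (log2 change -1.65 ± 0.19, SE, limma adjusted p = 3.4e-05). Its vehicle median lay above the filter level and its regorafenib median below it. The filter therefore favoured a lower level with regorafenib for Ovol1, and its call is not read against the share of all genes. Elf3, an epithelial Ets factor, fell from a median of 6802 CP20M to 2274 CP20M (-1.43 ± 0.17, SE, adjusted p = 3.6e-05). Ehf, the highest of the list, gave -0.80 ± 0.26 (adjusted p = 0.0347), not called. Esrp2, a splicing regulator of epithelial isoforms, fell by 0.68 on the log2 scale, and Hnf4a (-1.48) and Grhl1 (-1.23), named after their values were seen, also fell.

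Partners of the cadherins and of Epcam are also set beside the 2.16% of all genes called lower. None of the 6 catenins tested out of 7 was called by limma or edgeR (median 0.00), and 1 had an unadjusted p under 0.05. Among them were Ctnnb1 at 0.01 ± 0.11 (SE, limma adjusted p = 0.961) and Jup at 0.45 ± 0.15 (adjusted p = 0.0405). Of 5 other cadherins tested out of 12, 1 was called lower, the microvillus protocadherin Cdhr5 (-2.39, adjusted p = 6.9e-04), which was not called under median-ratio scaling. Of 6 partners and paralogs of Epcam, 1 was called lower, the claudin Cldn7 (-0.65, adjusted p = 7.5e-04), which was not called under median-ratio scaling or by edgeR. Without the shallow library 2 were called lower, Cldn7 and Tspan8. Of 11 epithelial markers, 3 were called lower, namely Cldn7, Cdx1 (-3.28) and Cdx2 (-1.89), intestinal identity factors, and 2 under median-ratio scaling or by edgeR. Krt8 stayed at 0.03 and Krt18 at 0.07, named after their values were seen.

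Relatives of Vim and Lgals1 were counted in the same way, beside the 2.16% of all genes called lower. Of 8 intermediate filaments tested out of 10, 1 was called, Krt23, which was lower (-2.61, limma adjusted p = 1.7e-04). Nes (nestin) gave 1.95 ± 0.37 (SE, limma adjusted p = 0.00139), not called at 0.001, and was called without the shallow library. None of the 4 other galectins tested was called by limma or edgeR, although 3 had an unadjusted p under 0.05, and Lgals4 was called lower without the shallow library. Among them were Lgals4, the main epithelial galectin, at -1.79 ± 0.39 (adjusted p = 0.00368) and Lgals9 at 0.94 ± 0.24 (adjusted p = 0.0101). Of the EMT transcription factors beyond the members, 4 of 11 passed the filter and 1, Foxq1, was called lower (-0.86 ± 0.13, SE, adjusted p = 2.4e-04), with Sox9 at -0.40 ± 0.16 (adjusted p = 0.0812).

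Over the 23 organoid libraries other than the shallow one, the genes most like Vim by Pearson r of log2(CP20M + 20) were Jam2 (0.961), Bpgm (0.938) and Evi5 (0.931). For Lgals1 they were Zc2hc1a (0.93), Ube2e2 (0.925) and Itm2c (0.921). Those most like Epcam were Rnf103 (0.897), Cldn23 (0.895) and Marveld2 (0.895), and those most like Cdh1 were Slc22a23 (0.896), Slc2a1 (0.885) and Selenoi (0.882). These are descriptions, since libraries share lines, treatments and depth, and with all 24 libraries the genes most like Vim were Rab31 (0.914), Npc2 (0.909) and Lamb1 (0.908).

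In vehicle fibroblasts the mesenchymal members led. Divided by exon length, the mean level in CP20M per kb was 13029 ± 1865 (SD, n = 4) for Vim, 10774 ± 738 for Lgals1, 973 ± 130 for Cdh2, 322 ± 133 for Zeb2, 293 ± 50.3 for Snai2, 159 ± 26.4 for Twist1, 141 ± 20.3 for Zeb1 and 69.7 ± 20.9 for Snai1. Cdh1 (1.04 ± 0.109) and Epcam (0.569 ± 0.683) were last. Neighbours whose ranges of mean ± SD overlap are Vim with Lgals1, Zeb2 with Snai2, Twist1 with Zeb1, and Cdh1 with Epcam. In vehicle colonoids, per kb, Epcam came first (6983 ± 991, SD, n = 3) and Cdh1 second (5332 ± 704), with Lgals1 at 58.0 ± 9.22 and Vim at 9.70 ± 8.28. In vehicle tumoroids these 4 genes came in the same order, with Epcam at 4568 ± 718, Cdh1 at 3919 ± 804, Lgals1 at 48.0 ± 36.8 and Vim at 0.633 ± 0.633, below Twist1 (3.07 ± 1.23) and Snai2 (2.31 ± 1.51). The ranges of mean ± SD of Epcam and Cdh1 overlapped in both genotypes.

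In fibroblasts 7 of the 10 members passed the filter (Vim, Lgals1, Cdh2, Zeb2, Zeb1, Snai2, Twist1), and none was called by limma at an adjusted p under 0.05 with at least 1.5-fold in any of the 6 comparisons, without line as a block. Against vehicle, 1.02% of 11032 genes were called at 4 µM regorafenib, 7.33% at 10 µM, 1.66% with both drugs and 0% with autogramin-2 alone. Between drug groups, 0.00906% were called when autogramin-2 was added to 4 µM regorafenib, and 0.145% for 10 µM against 4 µM. By edgeR 0 members were called as well. At an unadjusted limma p under 0.05, Twist1 and Lgals1 passed at 4 µM, Vim and Twist1 at 10 µM, Twist1 with both drugs, and 0 in the other comparisons.

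Twist1 had the largest differences at both regorafenib doses (chromosome 12, 33957671 to 33959829, plus strand). In lines M3, M3 (2), M1 (2) and M11 it read 309, 278, 229 and 217 CP20M in vehicle and 171, 144, 110 and 84 CP20M at 4 µM regorafenib. At 10 µM the first 3 lines read 197, 178 and 124 CP20M, and with both drugs the 4 lines read 213, 155, 171 and 110 CP20M. It was lower than vehicle in 4 of 4 lines at 4 µM and with both drugs, and in 3 of 3 at 10 µM, and no group with regorafenib overlapped vehicle. The difference was -0.94 ± 0.26 (SE, 1.92-fold lower, limma adjusted p = 0.0799) at 4 µM and -0.59 ± 0.28 (adjusted p = 0.181) at 10 µM. With line as a block it was called in 3 comparisons: 4 µM (-0.94 ± 0.14, adjusted p = 1.3e-04, where 2.65% of genes were called lower), 10 µM (-0.75 ± 0.15, adjusted p = 8.9e-04, where 7.71% were) and both drugs (-0.63 ± 0.14, adjusted p = 0.00324, where 4.33% were). Without line M11 and with no block it was also called at 4 µM (-0.86, adjusted p = 0.0218) and at 10 µM (-0.66, adjusted p = 0.024). No library with 4 µM or 10 µM regorafenib alone reached the filter level for Twist1, whereas all vehicle libraries did. The filter therefore favoured a lower level with regorafenib, and the Twist1 calls are not read against the shares of all genes. Autogramin-2 added to 4 µM regorafenib gave 0.31 for Twist1 (limma adjusted p = 0.96), not called.

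Vim in fibroblasts read 57258, 53701, 62251 and 73975 CP20M in vehicle, 49749, 44931, 55714 and 68938 CP20M at 4 µM, and 43644, 45912 and 52078 CP20M at 10 µM in the 3 lines treated. All lines were lower than their vehicle, and at 10 µM no value overlapped vehicle. The differences were small, -0.18 ± 0.15 (SE, limma adjusted p = 0.668) and -0.38 ± 0.16 (adjusted p = 0.136). With line as a block they were -0.18 (limma adjusted p = 0.0355) and -0.28 (adjusted p = 0.00249), both under 1.5-fold. Lgals1 read 10614, 9553, 9741 and 9009 CP20M in vehicle, 9204, 6729, 9449 and 7444 CP20M at 4 µM, and 8424, 8139 and 8705 CP20M at 10 µM. Its differences were -0.26 ± 0.10 (SE, limma adjusted p = 0.226) and -0.21 ± 0.10 (adjusted p = 0.218). With line as a block the Lgals1 differences were -0.26 ± 0.07 (limma adjusted p = 0.0126) and -0.24 ± 0.08 (adjusted p = 0.0181), both under 1.5-fold.

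Zeb2 was the only member tested whose differences at both regorafenib doses were above 0 (chromosome 2, 44983632 to 45117395, minus strand). It read 4698, 4548, 6217 and 10232 CP20M in vehicle, 6718, 4844, 7236 and 10136 CP20M at 4 µM, 7444, 5797 and 8822 CP20M at 10 µM, and 7405, 6112, 9032 and 11349 CP20M with both drugs. Line M11 was the highest under each treatment it had, and the groups overlapped throughout. The difference was 0.44 ± 0.31 (SE, limma adjusted p = 0.525) with both drugs and 0.25 ± 0.34 (adjusted p = 0.691) at 10 µM, where line M11 is missing. With line as a block these were 0.44 ± 0.09 (limma adjusted p = 0.00129) and 0.47 ± 0.09 (adjusted p = 8.0e-04), both under 1.5-fold. Zeb2 shares 662 exon bases with Mir5129, Zeb2os and Gm27761, some of them on the other strand.

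**Figure D4:**
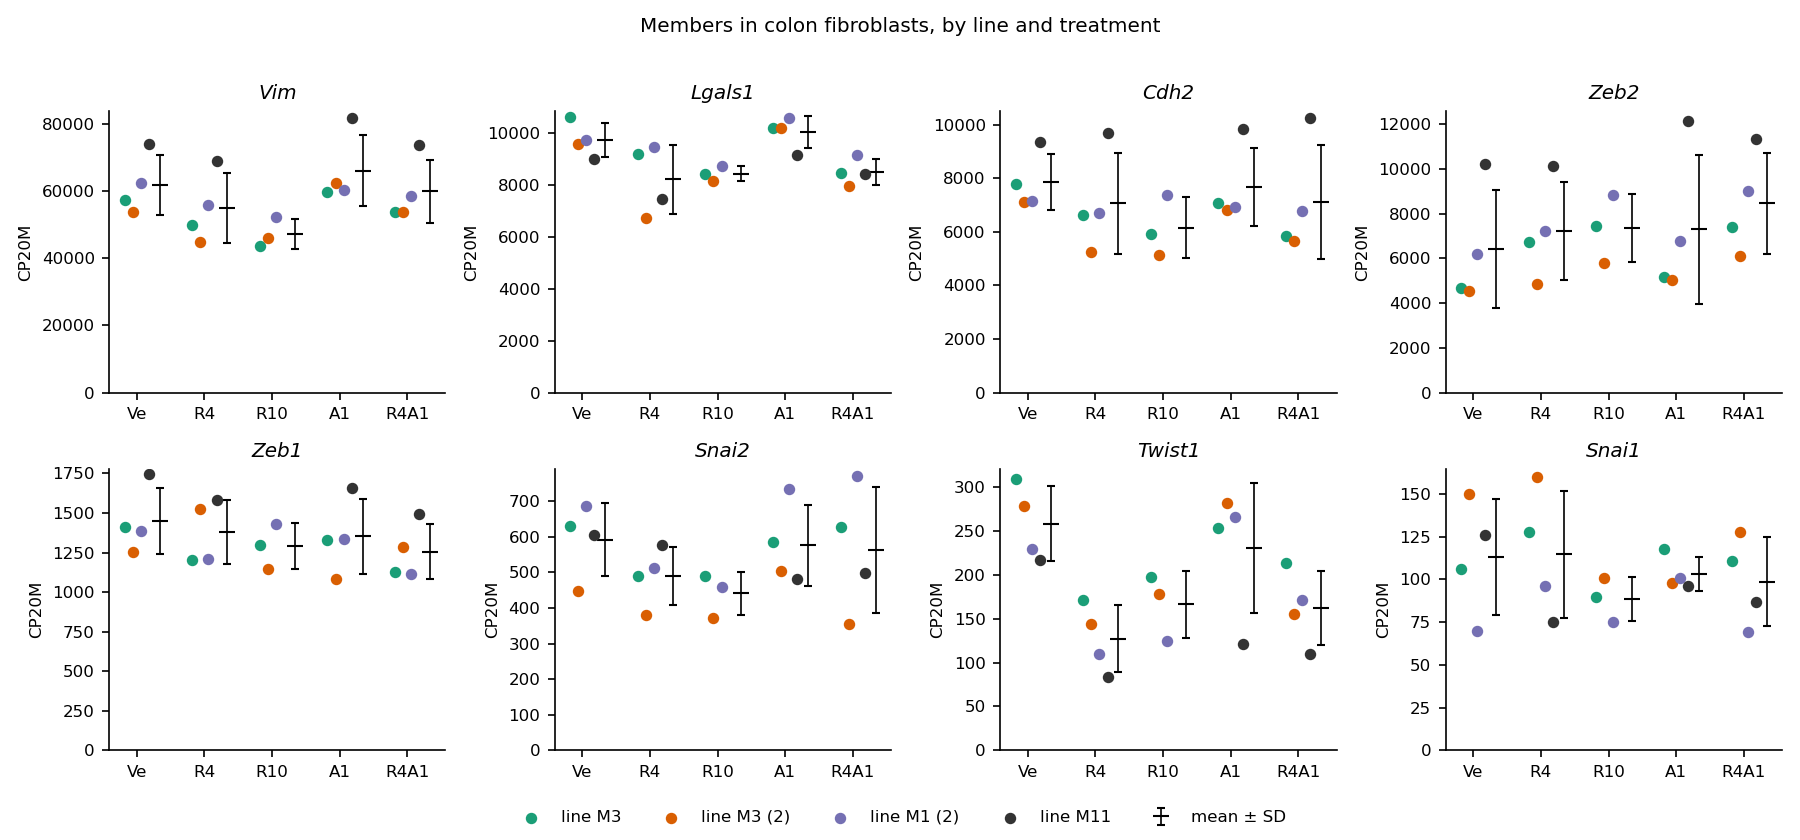
Members in the 19 fibroblast libraries, in CP20M on linear axes from 0 by treatment, with 1 point per line and the mean ± SD beside the points. Twist1 reads 217 to 309 CP20M in vehicle and 84 to 171 CP20M at 4 µM regorafenib, and Vim overlaps between vehicle and 4 µM.

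Cdh2, Zeb1 and Snai2 were not called in any fibroblast comparison, with or without line as a block. At 10 µM the differences were -0.36 ± 0.22 (SE, limma adjusted p = 0.32) for Cdh2, -0.16 ± 0.15 (adjusted p = 0.559) for Zeb1 and -0.40 ± 0.22 (adjusted p = 0.256) for Snai2. With line as a block Snai2 at 10 µM was at -0.41 ± 0.13 (limma adjusted p = 0.0202), under 1.5-fold. With autogramin-2 alone the 7 members tested ranged from -0.20 for Twist1 to 0.17 for Zeb2. Snai1 (chromosome 2, 167538195 to 167542814, plus strand) did not pass the filter and ranged from 69 to 160 CP20M over all fibroblast libraries. Its difference with regorafenib over 3 lines was 0.01 ± 0.21 (SD, exact permutation p = 1, where the smallest possible is 0.037). Cdh1 read 0 to 8 CP20M and Epcam 0 to 3 CP20M in fibroblasts, with and without drug.

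**Figure D5:**
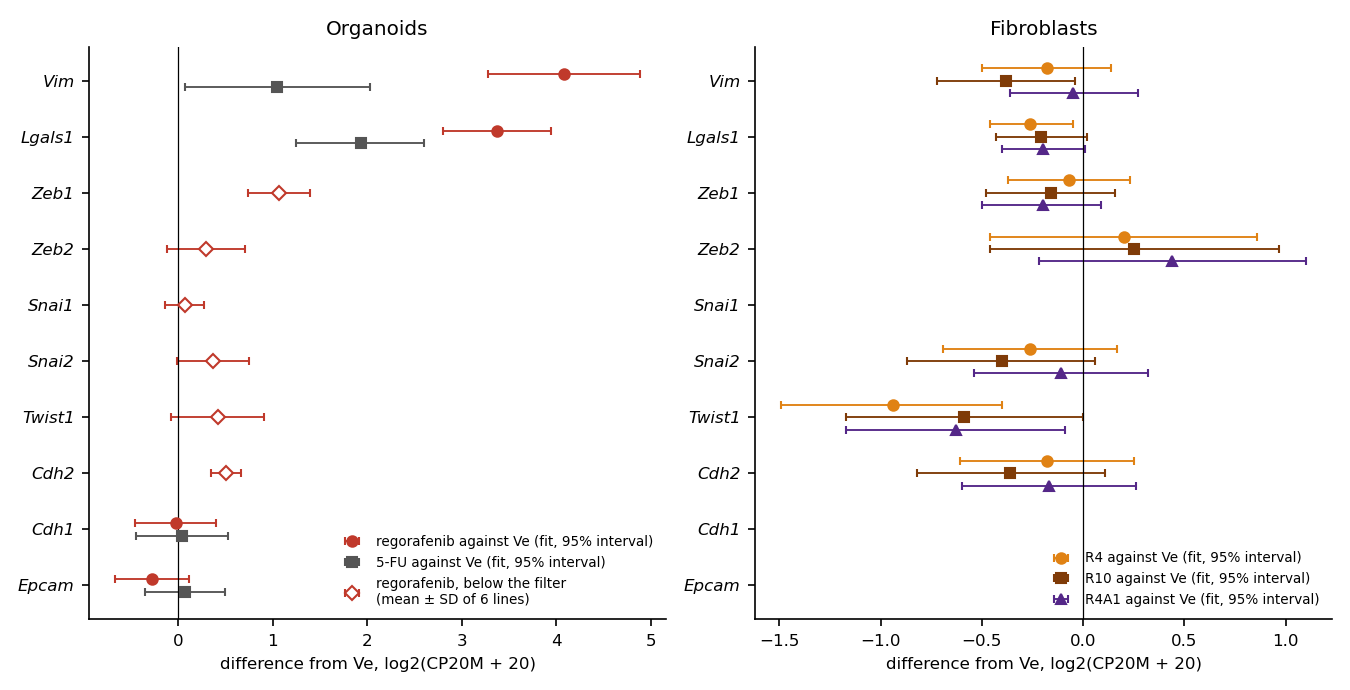
Differences from vehicle on the log2(CP20M + 20) scale for the members, organoids and fibroblasts in separate panels. Filled points are limma estimates with 95% intervals, open diamonds are means ± SD over 6 lines for members below the filter. Vim (4.08) and Lgals1 (3.37) lie far to the right in organoids with regorafenib and to the left of 0 in fibroblasts (-0.38 and -0.21 at 10 µM).

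In fibroblasts at 10 µM, 451 of 11032 genes were called lower and 358 higher, 7.33% in either direction. With line as a block 851 (7.71%) were called lower and 668 higher. The counts of the lists are given beside these shares. All 14 of 14 mesenchymal EMT markers passed the filter, and at 10 µM 2 were called lower and 0 higher (median 0.09, against -0.04 for all genes). These were Col3a1 (-1.43 ± 0.36, SE, limma adjusted p = 0.015) and Itgb3 (-1.32, adjusted p = 0.0286), the latter named after its value was seen. With line as a block Acta2 was also called higher and S100a4 lower. Fn1 gave -0.37 ± 0.21 (adjusted p = 0.263). None of the 7 EMT transcription factors tested beyond the members was called, with Twist2 at -1.03 ± 0.37 (adjusted p = 0.0778), and with line as a block 2 were called lower, Twist2 and Prrx1. Of 6 other cadherins tested, Cdh6 was called lower (-0.77, adjusted p = 0.0459), and 0 were called without line M11 or with median-ratio scaling, whereas with line as a block 3 were called lower (Cdh3, Cdh6 and Cdh11). Of 5 catenins, Ctnna1 was called lower (-0.64, adjusted p = 0.00313), and 0 were called without line M11. None of 4 intermediate filaments, 3 other galectins and 1 partner of Epcam tested was called by limma at 10 µM without the block, with 0, 1 and 1 at an unadjusted p under 0.05. With line as a block Synm was called higher, and Krt19 and the Epcam partner Cd9 lower.

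Cell type markers also moved in the fibroblast cultures, and their part in the Twist1 and Vim values was not tested. The 4 smooth muscle markers summed to 5136 to 23293 CP20M without regorafenib and 12741 to 43507 CP20M with it, and Myh11 was called higher at 10 µM (1.87 ± 0.36, SE, limma adjusted p = 0.00298). Without line M11, or with line as a block, all 3 smooth muscle markers tested were called higher (Myh11, Actg2 and Cnn1). The 7 macrophage markers summed to 753 to 5570 CP20M without regorafenib and 446 to 1916 CP20M with it, and Lyz2 was called lower (-2.60 ± 0.60, SE, adjusted p = 0.00806). The 5 endothelial markers summed to 794 to 8308 CP20M without regorafenib and 1224 to 22910 CP20M with it. Of the 8 fibroblast markers, 2 were called lower at 10 µM, Pdgfra (-3.03 ± 0.66, SE, adjusted p = 0.0055) and Col3a1, and with line as a block Col1a2 was also called lower and Thy1 higher. Over all genes 7.33% were called at 10 µM in either direction, and 7.71% were called lower with line as a block. Line M11 carried 11663 to 13216 CP20M of the 5 enteric glia and neuron markers, against 604 to 5929 CP20M in the other lines.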

How the data were processed

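RNA of 24 organoid and 19 fibroblast libraries was sequenced. The authors deposited a signal per gene, CP20M: reads trimmed (Trimmomatic 0.36), aligned to GRCm38 (STAR 2.5.3a) and counted (HTSeq 0.9.1), as named in the submitters' processing notes, then scaled to 20000000 reads per library. The legends call CP20M per kilobase, yet library sums show no division by length; per-kb values here use GENCODE M21 exon lengths. The strand setting is not stated in the sources used here, and the organoid library kit is named differently in the labels and the methods. Values are rounded up, and between 99.61% and 100.0% of values per library came out as whole reads; libraries near 20000000 reads are off by about 0.105%.

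The study used edgeR through Degust. Because the values are scaled, limma 3.58.1 (R 4.3.3) was run on log2(CP20M + 20) with 1 coefficient per group and trended variance, keeping genes that reached 200 CP20M (10 CPM) in 2 or more libraries, with Benjamini-Hochberg adjustment over 11320 (regorafenib, 18 libraries), 11562 (5-FU, 24 libraries) or 11032 genes (fibroblasts). Thresholds follow the study where its methods give them: adjusted p under 0.001 and 1.5-fold for organoid regorafenib contrasts, 0.01 and 2-fold for genotype, 0.05 alone for the interaction, and 0.05 and 1.5-fold elsewhere. Members below the filter were compared by exact permutation within lines. On simulated data 95.9% of 2-fold changes were recovered in the organoid regorafenib contrast and 79.8% at 10 µM in fibroblasts. The simulated counts had the same dispersion for every gene and no differences between lines or genotypes. These shares therefore do not measure the power in the real data.

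Alternatives were other pseudocounts (4 and 100 CP20M), no filter, median-ratio and quantile scaling, edgeR 4.0.16 on recovered reads, line as a block, and leaving out lines or the shallow library. Lines recur in every treatment, so the block pairs libraries of the same mouse: deviations from group means correlated at a mean r of 0.5 within organoid lines and 0.72 within fibroblast lines. No libraries were copies (at least 8.86 chi-square per gene over 51 pairs).

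All 10 members are named. Of the other lists (EMT transcription factors, keepers of the epithelial state, cadherins, catenins, intermediate filaments, galectins, mesenchymal markers, Epcam partners, cell type markers), the 2 genes with the lowest adjusted p per table and the gene with the highest level are named, and genes most like a member are the 3 with the highest Pearson r. The members and lists were chosen with earlier results of these data known. One gene of the mesenchymal list is not reported here and was left out of its counts. RefSeq windows were matched by symbol for 5 members, and windows on chromosome 18, which holds Zeb1 and Cdh2, were left out. No window was available for Cdh1, Lgals1 or Snai2.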

Additional observations from a re-analysis of the deposited data

Results flagged for a closer look

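In fibroblasts treated with autogramin-2, line M11 stood apart from the other 3 lines in 2 members. Vim read 81762 CP20M in M11 against 59521 to 62412 CP20M, and Cdh2 read 9855 CP20M against 6826 to 7084 CP20M. Both gaps exceeded Dixon's critical value of 0.829 for 4 samples. These were 2 of 32 groups of 4 examined, and chance flags about 1 in 20. M11 was also the highest line for Vim and Cdh2 in vehicle.

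Vim and Lgals1 moved in opposite directions in organoids and fibroblasts at 4 µM regorafenib, in every line of each. For Vim the mean difference from vehicle was 4.03 in colonoids, 3.64 in tumoroids and -0.18 in fibroblasts on the log2 scale, so that colonoids and fibroblasts lay 4.21 apart and tumoroids and fibroblasts 3.82 apart. For Lgals1 it was 3.04, 3.37 and -0.26, or 3.29 and 3.63 apart. Neither fibroblast difference was called (limma adjusted p = 0.668 for Vim and 0.226 for Lgals1). Fibroblast values at 4 µM overlapped vehicle across lines for both genes. The tables were scaled separately and treated for different times, and the difference was not tested.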

How the results depend on the processing

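The rises of Vim (2.53 to 6.00) and Lgals1 (2.36 to 3.91) over both organoid genotypes were called under 16 of 16 alternatives, with adjusted p up to 3.2e-04 and 1.6e-04. Alternatives for the low members without the shallow library were chosen after seeing the data. Members called higher fell from 2 to 1 in colonoids with edgeR and in tumoroids with a pseudocount of 100, no filter or edgeR; leaving out lines gave 0 to 1 in colonoids, 0 to 2 in tumoroids and 0 to 1 for 5-FU. With line as a replicate block, 5-FU members called higher went from 1 to 2 (also without the shallow library), and members called lower from 0 to 1 in fibroblasts at 4 µM, 10 µM and with both drugs (0 to 1 on leaving out lines at 4 and 10 µM); the block changed no other call of a member. No paired analysis was possible for the vehicle genotypes because no line has both.

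Cdh1 lay near 0 and changed sign. Its regorafenib difference was 0.05 with median-ratio scaling, 0.06 with edgeR and 0.10 without the shallow library (-0.09 to 0.02 on leaving out lines). In colonoids these were 0.08, 0.13 and 0.21, or 0.22 with the block (-0.17 to 0.06), and in tumoroids 0.01 with median-ratio scaling (-0.06 to 0.06). The Cdh1 interaction was -0.07 (median-ratio), -0.03 (quantile), -0.14 (edgeR), -0.22 and -0.23 (without the shallow library, without and with the block), and its 5-FU difference -0.03 (quantile). The Vim interaction became 0.81 with a pseudocount of 4 and 2.25 with edgeR. Snai1 in organoids became -0.07 and Zeb2 0.33 (exact p = 0.0309) without the shallow library. With a pseudocount of 4, Zeb2 was 0.92 (exact p = 0.0425) and Snai2 0.83 (exact p = 0.0549). Leaving out lines gave -0.30 to 0.17 for Epcam in tumoroids, interactions of -0.65 to 0.04 (Vim), -0.09 to 0.69 (Lgals1) and -0.07 to 0.16 (Cdh1), -0.39 to 0.13 for Cdh1 between doses and -0.08 to 0.11 with 5-FU, 0.21 to 0.44 for Zeb2, 0.25 to 0.46 for Snai2, 0.25 to 0.49 for Twist1 and 0.01 to 0.11 for Snai1 in organoids. In fibroblasts it gave -0.11 to 0.05 for Snai2 with autogramin-2, -0.03 to 0.07 for Cdh2 on adding autogramin-2, and, between 10 and 4 µM, -0.23 to 0.04 for Zeb1, -0.07 to 0.23 for Zeb2 and -0.01 to 0.11 for Lgals1. The cause of these shifts was not tested.

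Over all genes, the number called for regorafenib ranged from 397 (no filter) to 1428 (without the shallow library, with the block) around 563, from 90 to 750 around 165 in colonoids and from 5 to 403 around 23 in tumoroids. For genotype it ranged from 0 to 84 around 16, between doses from 5 to 295 around 51, and for 5-FU from 139 to 810 around 272. In fibroblasts the block raised it from 113 to 797 at 4 µM, from 809 to 1519 at 10 µM, from 183 to 771 with both drugs, from 1 to 158 for adding autogramin-2 and from 16 to 664 between doses. Median-ratio scaling moved the colonoid median of all genes from -0.14 to -0.03 and the share of colonoid calls that were higher from 52.7% to 65.7%. Depth limits the 6 low members, since 1 read in the shallow library is worth 39.0 CP20M.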
